A study of Homo sapiens with 12 samples.

Results

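Solute carriers (SLCs) are membrane proteins that move amino acids, sugars, ions, metals, vitamins and metabolites across the plasma membrane and the membranes of organelles, and their genes are numbered by family. The genes described here were all those of the deposited table whose symbol consists of SLC, a family number, the letter A and a member number, which gave 166 of 11529 genes from 41 families. By substrate, 36 were mitochondrial carriers, 29 carried amino acids, peptides or amines, 23 metals, 19 inorganic ions, 17 vitamins, lipids or other solutes, 13 sugars, 13 carboxylates and organic ions, 5 nucleosides or bases and 5 nucleotide sugars. The remaining 6 carry the name without being transporters (SLC9A3R1, SLC9A3R2, SLC2A4RG, SLC4A1AP, SLC7A6OS and the pseudogene SLC2A3P1). Since the symbol decides, SLC35 genes with another letter in place of A are not among them. The RefSeq annotation of GRCh38.p14 lists 351 protein-coding genes with such symbols, of which 161 were in the table. The others were not analysed here. The authors had dropped genes whose FPKM averaged under 1 or had an SD under 1, so every gene in the table had to vary over the 12 samples, and counts over these 166 genes describe genes chosen in part by their spread.

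RNA came from MDA-MB-468 cells and from MDA-MB-231 cells, which are both human lines of triple-negative breast cancer, each as 3 control samples labelled wild type and 3 samples with a SMARCA4 knockout (KO), 12 in all. SMARCA4 (BRG1) is an ATPase of the SWI/SNF chromatin remodelling complex. The KO cells were polyclonal pools, transduced with a lentiviral plasmid that carries Cas9 and 1 guide RNA and selected with puromycin. No treatment of the control cells is named in the labels, whose titles say wild type and whose column names say control. For protein blots the authors separated parental cells from cells given a nontargeting control vector. Which of these gave the control RNA is not stated clearly. All cells were grown in serum-containing DMEM. Nothing in the labels says that the samples of a group were separate cultures, so p-values measure only the spread between these samples. Values are log2(FPKM + 1), where FPKM counts fragments scaled to transcript length and to the size of the library, so that levels can be compared between genes. Read depth is unknown. In bulk RNA, fewer cells that use a gene and less RNA per cell cannot be told apart.

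Glucose enters mammalian cells mainly through the GLUT family (SLC2), lactate crosses the membrane through monocarboxylate transporters (SLC16), and neutral and acidic amino acids use SLC1, SLC7, SLC38 and SLC43 carriers. Zinc is brought into the cytosol by SLC39 (ZIP) proteins and removed from it by SLC30 (ZnT) proteins. The SLC25 family exchanges nucleotides, phosphate, amino acids and cofactors across the inner mitochondrial membrane. Tumour cells are known to depend on many of these, among them GLUT1 (SLC2A1), the glutamine transporter SLC1A5 and the cystine transporter SLC7A11.

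SMARCA4 itself was 6.61, 6.62 and 6.68 in the control and 5.35, 5.48 and 5.61 in the KO samples of MDA-MB-468, a log2 fold change of -1.16 (SE 0.08, adjusted p = 0.014, limma). It was 6.10, 6.18 and 6.09 in the control and 4.46, 4.64 and 4.56 in the KO samples of MDA-MB-231, a change of -1.57 (SE 0.06, adjusted p = 0.0014). The transcript was therefore reduced, and still present, in every KO sample. All 6 epithelial markers checked were higher in control MDA-MB-468 cells, with a summed level of 5783 to 6277 FPKM against 959 to 1502 FPKM in control MDA-MB-231 cells, and 4 of 5 mesenchymal markers were lower (CD44 was higher). After KO the epithelial sum was 6657 to 7141 FPKM in MDA-MB-468 cells, above the controls (KRT8 0.50, adjusted p = 0.032, under the fold limit). The keratins KRT18, KRT19 and KRT7 changed by 0.25, 0.07 and 0.11 there, but EPCAM and CDH1 by -0.09 and -0.22. EPCAM was 8.22, 8.24 and 8.27 in control and 8.14, 8.19 and 8.11 in KO samples, all below the controls. Of the mesenchymal markers VIM, ZEB1 and AXL changed by 0.42, 0.11 and 0.04 in MDA-MB-468 KO cells, and FN1 and CD44 by -0.13 and -0.12, none called. In MDA-MB-231 KO cells the epithelial sum was 1501 to 1666 FPKM. CDH1 was called there at a low level, 0.267 FPKM in control and 0.84 FPKM in KO samples. EPCAM changed by 0.0090 and KRT8, KRT18, KRT19 and KRT7 by 0.43, 0.21, 0.39 and 0.46, none called. The mesenchymal sum of MDA-MB-231 KO cells was 1795 to 1975 FPKM against 2078 to 2373 FPKM in the controls (VIM -0.39, adjusted p = 0.031, under the fold limit). The other mesenchymal markers were divided in these cells. FN1 and AXL changed by -0.47 and -0.28, ZEB1 by 0.02 and CD44 by 0.30, and KO samples of CD44 lay above the controls. The leukocyte marker CD14 rose there by 1.18 (adjusted p = 0.029), while the other 4 leukocyte markers and all 6 fibroblast markers were not among the genes tested. The part of these shifts in the results below was not tested.

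Promoter sequences were looked up for the members on which the results turn, and 128 of the 166 had an entry. SLC6A8 was the gene that passed the test in the same direction in both cell lines when samples were not paired. SLC12A7 and SLC5A3 rose in MDA-MB-231 cells and passed the test there in every fit that left out 1 sample. For these 3 genes, the 300 bases from 250 before to 50 after the annotated start (RefSeq, GRCh38.p14) are shown. They lie at chrX:153687676-153687975 (plus strand), chr5:1112014-1112313 (minus strand) and chr21:34073328-34073627 (plus strand), and are printed 5′ to 3′. Capitals mark matches on either strand to CACGTG (E-box), GGGCGG (GC box), TGANTCA (AP-1), ACATTCC (TEAD), TGATGNAA (amino acid response) or ACGTG (the core of the hypoxia response element, which also lies inside CACGTG).
SLC6A8: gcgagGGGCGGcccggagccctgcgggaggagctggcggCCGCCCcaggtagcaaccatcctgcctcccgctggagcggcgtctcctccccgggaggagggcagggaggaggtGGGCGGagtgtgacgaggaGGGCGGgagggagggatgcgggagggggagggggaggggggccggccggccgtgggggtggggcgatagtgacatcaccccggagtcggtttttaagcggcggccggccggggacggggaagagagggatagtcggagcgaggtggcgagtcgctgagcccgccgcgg
SLC12A7: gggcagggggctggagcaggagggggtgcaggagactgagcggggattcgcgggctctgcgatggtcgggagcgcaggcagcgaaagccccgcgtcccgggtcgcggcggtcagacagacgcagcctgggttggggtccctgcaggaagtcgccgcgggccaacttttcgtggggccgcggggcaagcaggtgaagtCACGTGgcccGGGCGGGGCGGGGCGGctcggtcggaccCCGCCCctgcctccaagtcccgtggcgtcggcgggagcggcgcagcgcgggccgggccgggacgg
SLC5A3: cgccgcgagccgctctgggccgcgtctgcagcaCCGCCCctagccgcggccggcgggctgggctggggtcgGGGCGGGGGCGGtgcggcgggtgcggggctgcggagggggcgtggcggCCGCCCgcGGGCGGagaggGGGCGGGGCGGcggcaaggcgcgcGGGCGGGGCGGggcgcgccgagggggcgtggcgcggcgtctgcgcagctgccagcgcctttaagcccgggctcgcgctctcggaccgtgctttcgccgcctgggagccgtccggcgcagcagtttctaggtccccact
GC boxes were the main match, with 4 in SLC6A8, 4 in SLC12A7 and 9 in SLC5A3, and 44.6% of all 27305 promoters of this length in RefSeq, and 95 of the 128 members with an entry (74.2%), hold at least 1. SLC12A7 also holds an E-box, which 7.43% of all promoters have, and its ACGTG matches lie inside that E-box (21.6% of all promoters hold an ACGTG match). No window of the 3 holds an AP-1, TEAD or amino acid response match, which 7.76%, 3.48% and 3.67% of promoters have. These are matches of letters, not measured sites.

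In control cells, the repertoire of solute carriers was first compared between the cell lines, to give the level from which each KO started. Of the 166 genes, 113 (68.1%) passed the test, against 64.1% of all genes (limma, adjusted p under 0.05 and an absolute log2 difference over 0.5). Of these, 69 were higher in MDA-MB-468 cells and 44 were lower there, against 32.7% and 31.4% of all genes. The samples of the cell lines did not overlap for 151 of 166 genes (91%), against 85.5% of all genes. The total of all solute carrier genes was 0.851 to 0.879% of the summed FPKM of the table in control MDA-MB-468 and 0.771 to 0.789% in control MDA-MB-231 samples, which do not overlap. After KO the total was 0.861 to 0.883% and 0.753 to 0.782%, which overlapped the controls in each cell line.

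Lactate and glucose carriers were divided between the cell lines. SLC16A3 (MCT4), which exports lactate from glycolytic cells, was at 2.40, 1.97 and 1.94 in MDA-MB-468 and at 8.11, 8.36 and 8.51 in MDA-MB-231 controls, that is 3.34 ± 0.81 against 322 ± 44 FPKM (SD, n = 3), 96.3-fold higher (adjusted p = 9.8e-09, limma). SLC16A1 (MCT1), which carries lactate and pyruvate in either direction, had the opposite pattern, at 6.78 ± 1.6 against 0.173 ± 0.031 FPKM (adjusted p = 5.7e-07). MDA-MB-231 cells therefore had little MCT1 message and much MCT4 message, and MDA-MB-468 cells had a low level of each. Among glucose transporters, SLC2A1 (GLUT1) had the highest level of its class, at 89.9 ± 3.2 FPKM in MDA-MB-468 and 241 ± 4.6 FPKM in MDA-MB-231 cells. SLC2A3 (GLUT3), the high-affinity form, was 0.14 ± 0.12 against 11.1 ± 1.9 FPKM, and the sugar phosphate carrier SLC37A2 was 0.173 ± 0.087 against 20.6 ± 3.8 FPKM, so that the 3 were all higher in MDA-MB-231 cells. The class as a whole was divided, with 5 of 13 genes higher in MDA-MB-468 and 6 higher in MDA-MB-231 cells, against 32.7% and 31.4% of all genes.

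Amino acid and amine carriers contained genes detected almost only in MDA-MB-468 cells. SLC1A6 (EAAT4), a glutamate transporter best known from Purkinje neurons, was 7.78, 7.80 and 7.92 in MDA-MB-468 controls, 228 ± 12 FPKM, and listed at 0 in all 6 MDA-MB-231 samples. Its KO samples of MDA-MB-468 were 8.44, 8.07 and 8.05, above the controls, with a change of 0.35 that did not pass (adjusted p = 0.14). SLC6A2, the noradrenaline transporter, was 27.8 ± 3.6 FPKM in MDA-MB-468 controls and listed at 0 in the 3 MDA-MB-231 controls. With SLC24A3, SLC28A3, SLC52A3 and SLC6A17, 6 genes had over 5 FPKM in control MDA-MB-468 and under 0.1 FPKM in control MDA-MB-231 cells, limits that were set after the values had been seen. The reverse held for 2 genes, SLC17A9, the vesicular nucleotide transporter (43.7 ± 1.6 FPKM in MDA-MB-231 controls, listed at 0 in MDA-MB-468 controls), and SLC7A2, a transporter of cationic amino acids (5.92 ± 1.1 against 0.0867 ± 0.025 FPKM). SLC24A3, SLC28A3, SLC52A3 and SLC17A9 belong to other substrate classes. Such genes were not counted over the whole table, so no share of all genes stands beside the 6 and 2. A gene near 0 in every sample of 1 cell line can have entered the table only through the other. SLC1A5 and SLC7A5, also of the amino acid and amine class, differed less. SLC1A5, which imports glutamine and had the highest level of its class, was 179 ± 8.2 against 120 ± 5.5 FPKM. Its difference passed in all 6 fits that left out 1 sample. SLC7A5 (LAT1), which brings in leucine and other large neutral amino acids, was 88.7 ± 9.3 against 94.6 ± 11 FPKM, a difference that did not pass (adjusted p = 0.48).

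The choline transporter-like gene SLC44A2 was 718 ± 30 FPKM in MDA-MB-468 controls, the highest level of any member there, and 54.9 ± 6.9 FPKM in MDA-MB-231 controls, and SLC44A3 was 16.3 ± 0.96 against 0.147 ± 0.04 FPKM. Of the vitamins, lipids and others class 13 of 17 genes passed (76.5%), 12 of them higher in MDA-MB-468 cells, against 64.1% and 32.7% of all genes. The equilibrative nucleoside transporter SLC29A1 (ENT1), through which nucleoside drugs enter cells, went the other way with 11.4 ± 1.1 against 140 ± 5.2 FPKM. The potassium-dependent sodium-calcium exchanger SLC24A3 and the sodium-potassium-chloride cotransporter SLC12A2 (NKCC1), which loads cells with chloride, were both higher in MDA-MB-468 cells, the latter at 40.1 ± 2.4 against 6 ± 0.34 FPKM.

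Of the metal carriers 12 of 23 passed (52.2%), against 64.1% of all genes. SLC39A10, a zinc importer, was higher in MDA-MB-231 cells (14.7 ± 0.39 against 1.96 ± 0.076 FPKM), and SLC39A11, a ZIP protein of internal membranes, in MDA-MB-468 cells (23.4 ± 3.8 against 4.53 ± 0.22 FPKM). SLC39A1, the metal carrier with the highest level, differed by 0.43 on the log2 scale, which is under the limit of 0.5. Of mitochondrial carriers 20 of 36 passed (55.6%), again against 64.1% of all genes. The most abundant, the adenine nucleotide translocase SLC25A5, was 662 ± 26 against 394 ± 21 FPKM. SLC25A21 and SLC25A45 had the largest differences of that class, 2.06 and 1.97 on the log2 scale. SLC35A1 and SLC35A3, which supply the Golgi with CMP-sialic acid and UDP-GlcNAc, were higher in MDA-MB-468 cells by 1.43 and 1.12, whereas SLC35A4, the highest of its class, did not pass (-0.13, adjusted p = 0.18). The chloride-bicarbonate exchanger SLC4A2, the highest of the inorganic ion class, differed by -0.37, also under the limit.

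**Figure D1:**
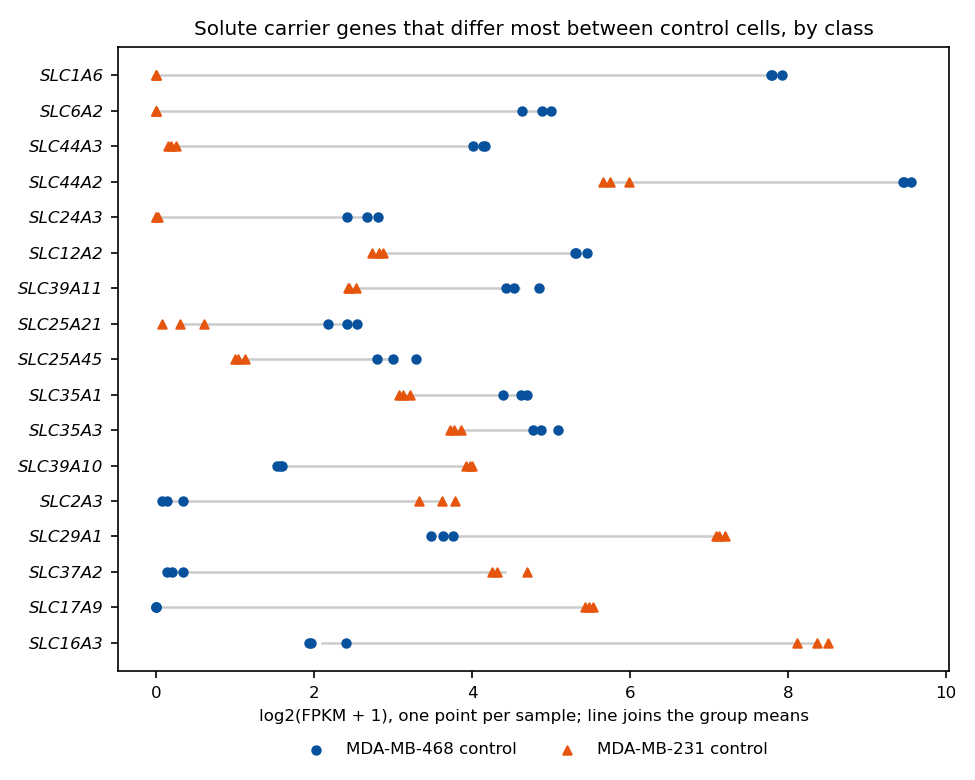
Levels of the solute carrier genes that differed most between control cells in each substrate class, as log2(FPKM + 1) on the horizontal axis, with a circle for each of 3 MDA-MB-468 and a triangle for each of 3 MDA-MB-231 control samples and a line between the group means. SLC1A6 lies between 7.78 and 7.92 in MDA-MB-468 and at 0 in MDA-MB-231 samples, and SLC16A3 lies at the other end, with 8.11 to 8.51 in MDA-MB-231 samples.

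KO and control were then compared within each cell line, to ask which transporters change when SMARCA4 is disrupted. In MDA-MB-468 cells, 5 of 166 genes passed (3.01%), against 2.14% of all genes, with 3 higher and 2 lower in KO cells (1.33% and 0.815% of all genes). The glutamate transporter SLC1A3, the noradrenaline transporter SLC6A2 and the creatine transporter SLC6A8 rose, and the magnesium transporter SLC41A2 and the orphan organic ion carrier SLC22A23 fell. Without a limit on the fold change, 9 genes had an adjusted p under 0.05, against 3.75% of all genes, and 58 an unadjusted p under 0.05, against 25.1%. KO and control samples did not overlap for 66 genes (39.8%), against 31% of all genes, with 31 higher and 35 lower (17.5% and 13.5% of all genes). The median change of the members was -0.0017 on the log2 scale, against 0.0155 over all genes.

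Positions of the called genes are given on GRCh37, the build that the authors used (hg19). SLC1A3 (EAAT1; chr5:36596690-36688436, plus strand), which takes up glutamate and aspartate, was 6.72, 6.81 and 6.85 in control and 7.24, 7.31 and 7.42 in KO samples of MDA-MB-468. All KO samples lay above all controls, with 110 ± 5.2 and 160 ± 10 FPKM, a log2 fold change of 0.53 (SE 0.07, adjusted p = 0.025). In MDA-MB-231 cells the gene was low, at 2.84, 3.58 and 3.36 in control and 3.67, 3.48 and 3.53 in KO samples, and its change there was 0.30 (adjusted p = 0.34). The difference between these changes was 0.23 and did not pass (adjusted p = 0.47).

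SLC6A2 (chr16:55689900-55741557, plus strand), which takes noradrenaline back into nerve endings, was 4.63, 4.89 and 5.0 in control and 5.50, 5.62 and 5.62 in KO samples, without overlap. Its level went from 27.8 ± 3.6 to 46.9 ± 2.2 FPKM, a log2 fold change of 0.74 (SE 0.10, adjusted p = 0.032). Since it was at 0.00 or 0.01 in every MDA-MB-231 sample, no change could be measured there, and the difference between the cell lines (0.74, adjusted p = 0.0028) rests on MDA-MB-468 cells.

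SLC6A8 (chrX:152953381-152962043, plus strand), which imports creatine for the phosphocreatine energy buffer, passed in both cell lines. In MDA-MB-468 cells it was 2.32, 2.13 and 2.36 in control and 2.74, 2.85 and 3.0 in KO samples, a change of 0.59 (SE 0.09, adjusted p = 0.038). In MDA-MB-231 cells it was 1.61, 1.48 and 1.49 in control and 1.90, 2.12 and 2.29 in KO samples, a change of 0.58 (SE 0.11, adjusted p = 0.033). KO samples lay above the controls in each cell line, and the difference between the changes was 0.01, with a 95% confidence interval from -0.32 to 0.34. With samples paired by replicate number neither change passed (adjusted p = 0.055 and 0.11), and each passed in 1 of the 6 fits that left out a sample. The genome holds near-identical copies of SLC6A8, so reads may be split between them and its values are uncertain.

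SLC41A2 (chr12:105195579-105352522, minus strand), a magnesium transporter, was 3.93, 4.01 and 3.90 in control and 3.20, 3.18 and 3.45 in KO samples of MDA-MB-468, going from 14.5 ± 0.63 to 8.74 ± 1.1 FPKM. Its log2 fold change was -0.67 (SE 0.09, adjusted p = 0.028), with all KO samples below the controls. In MDA-MB-231 cells it was 3.91, 3.62 and 3.90 in control and 3.90, 3.88 and 3.83 in KO samples, and the groups overlapped (0.06, adjusted p = 0.70). The changes differed between the cell lines by -0.73 (adjusted p = 0.0054).

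SLC22A23 (chr6:3269196-3457284, minus strand), whose substrate is not known, passed in both cell lines in opposite directions. In MDA-MB-468 cells it was 4.59, 4.28 and 4.21 in control and 3.49, 3.60 and 3.77 in KO samples, a change of -0.74 (SE 0.12, adjusted p = 0.040). In MDA-MB-231 cells it was 0.73, 1.06 and 1.15 in control and 1.45, 1.70 and 1.65 in KO samples, a change of 0.62 (SE 0.13, adjusted p = 0.041). The groups did not overlap in either cell line, and the changes differed by -1.35 (SE 0.18, adjusted p = 0.0012). The level stayed higher in MDA-MB-468 KO cells (11.4 ± 1.2 FPKM) than in MDA-MB-231 KO cells (2.03 ± 0.27 FPKM). PSMG4 overlaps this gene on the opposite strand, and whether reads were counted by strand is not given in the sources used here, so its values are uncertain. PSMG4 changed by 0.47 in MDA-MB-468 cells (adjusted p = 0.052) and by 0.17 in the other cell line (adjusted p = 0.31), and neither change passed.

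Same-numbered control and KO samples of MDA-MB-468 deviated together weakly, with correlations of 0.119 to 0.254, and control 3 with KO 2 gave 0.131. A fit blocked by the replicate number called 8 of 166 genes, against 2.09% of all genes, of which SLC1A3 and SLC6A2 (adjusted p = 0.045 each) also passed without the block. SLC6A8 (adjusted p = 0.055), SLC41A2 (0.059) and SLC22A23 (0.085) did not pass with the block. The genes that passed with it alone were the sugar transporter SLC2A10 (-1.18, adjusted p = 0.043), SLC39A11 (-0.75, 0.043), the sulfate transporter SLC26A2 (0.58, 0.045), the amino acid transporter SLC6A14 (-0.59, 0.045), SLC29A1 (0.66, 0.047) and the taurine transporter SLC6A6 (0.56, 0.048). SLC26A2, SLC6A14 and SLC6A6 were named after their values had been seen. The count also rested on single libraries. Without control sample 1, 2 or 3, or without KO sample 2 or 3, 0 of 166 genes passed in limma, with 41 to 48 at an unadjusted p under 0.05, whereas 9 passed without KO sample 1. SLC1A3, SLC41A2, SLC6A2 and SLC6A8 passed in that 1 of the 6 fits, and SLC22A23 in 0.

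In MDA-MB-231 cells, 7 of 166 genes passed (4.22%), against 3.7% of all genes, with 6 higher and 1 lower in KO cells (2.39% and 1.31% of all genes). The potassium-chloride cotransporter SLC12A7, the amino acid transporter SLC43A2, the myo-inositol transporter SLC5A3, the folate transporter SLC46A1, SLC22A23 and SLC6A8 rose, and the metal importer SLC39A8 fell. An adjusted p under 0.05 was reached by 13 genes without a limit on the fold change, against 10.8% of all genes, and an unadjusted one by 69, against 31.2%. Samples did not overlap for 64 genes (38.6%), against 36% of all genes, with 35 higher and 29 lower (16.6% and 19.4% of all genes). The median change was 0.0025, against -0.0064 over all genes. The called genes were spread over 6 of the 9 substrate classes, and 2 of the 6 that rose carry amino acids or amines.

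SLC12A7 (KCC4; chr5:1050499-1112178, minus strand), which carries potassium and chloride out of cells and takes part in cell volume control, was 3.32, 3.48 and 3.33 in control and 4.21, 4.27 and 4.17 in KO samples of MDA-MB-231. It went from 9.41 ± 0.67 to 17.6 ± 0.62 FPKM, a log2 fold change of 0.84 (SE 0.06, adjusted p = 0.0057), without overlap. In the other cell line it was 2.41, 2.10 and 2.14 in control and 1.80, 1.90 and 1.85 in KO samples, where the KO samples lay below the controls but the change of -0.37 did not pass (adjusted p = 0.084). The changes differed by -1.21 (SE 0.12, adjusted p = 0.00025), the smallest adjusted p of any member in that comparison.

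SLC5A3 (chr21:35445878-35478559, plus strand), which accumulates myo-inositol as an osmolyte, was 2.59, 2.43 and 2.48 in control and 3.28, 3.24 and 3.21 in KO samples of MDA-MB-231, 4.67 ± 0.33 and 8.47 ± 0.21 FPKM. The log2 fold change was 0.74 (SE 0.06, adjusted p = 0.0059). Values in MDA-MB-468 cells were 1.95, 1.84 and 2.00 in control and 1.92, 1.95 and 2.11 in KO samples, which overlap, and the difference between the cell lines was -0.68 (adjusted p = 0.0021). The gene shares its locus and strand with MRPS6, which itself changed by 0.32 in MDA-MB-231 cells (adjusted p = 0.045), so that the reads of the pair may not be fully separated.

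SLC43A2 (LAT4; chr17:1472562-1532180, minus strand), which carries branched-chain amino acids and phenylalanine, was 1.87, 2.09 and 1.84 in control and 2.64, 2.85 and 2.61 in KO samples of MDA-MB-231. It rose by 0.77 (SE 0.10, adjusted p = 0.015). In MDA-MB-468 cells the values were 3.07, 2.86 and 2.76 in control and 2.87, 2.32 and 2.70 in KO samples, which overlap, and the changes differed by -1.03 (adjusted p = 0.0062). With 5.51 ± 0.61 FPKM, MDA-MB-231 KO cells reached the level of MDA-MB-468 cells (6.5 ± 0.84 in control and 5.29 ± 1.2 FPKM in KO samples).

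SLC46A1 (chr17:26721661-26734215, minus strand), the proton-coupled folate transporter, was 2.35, 2.63 and 2.30 in control and 3.17, 3.09 and 3.10 in KO samples of MDA-MB-231, a change of 0.69 (SE 0.10, adjusted p = 0.017). MDA-MB-468 cells gave 2.15, 2.00 and 1.91 in control and 2.36, 2.49 and 2.20 in KO samples, also without overlap, and the change of 0.33 did not pass (adjusted p = 0.12). The difference of -0.37 between the cell lines did not pass either (adjusted p = 0.11).

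SLC39A8 (ZIP8; chr4:103172237-103352415, minus strand), which imports zinc, manganese and cadmium, was 4.27, 4.23 and 4.19 in control and 3.50, 3.39 and 3.47 in KO samples of MDA-MB-231. It fell by 0.78 on the log2 scale (SE 0.05, adjusted p = 0.0051), from 17.8 ± 0.51 to 9.96 ± 0.45 FPKM. In MDA-MB-468 cells it was 3.41, 3.45 and 3.48 in control and 3.41, 3.20 and 3.15 in KO samples, a change of -0.19 that did not pass (adjusted p = 0.20). The changes differed by 0.59 (adjusted p = 0.0044), and after KO the level in MDA-MB-231 cells was near that of MDA-MB-468 controls (9.91 ± 0.27 FPKM).

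SLC12A7, SLC39A8 and SLC5A3 passed in all 6 fits of MDA-MB-231 that left out 1 sample each, SLC43A2 in 4, SLC46A1 in 2, SLC6A8 in 1 and SLC22A23 in 0. The count over the members was 5 without any of the controls or without KO sample 3, 4 without KO sample 1 and 3 without KO sample 2.

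**Figure D2:**
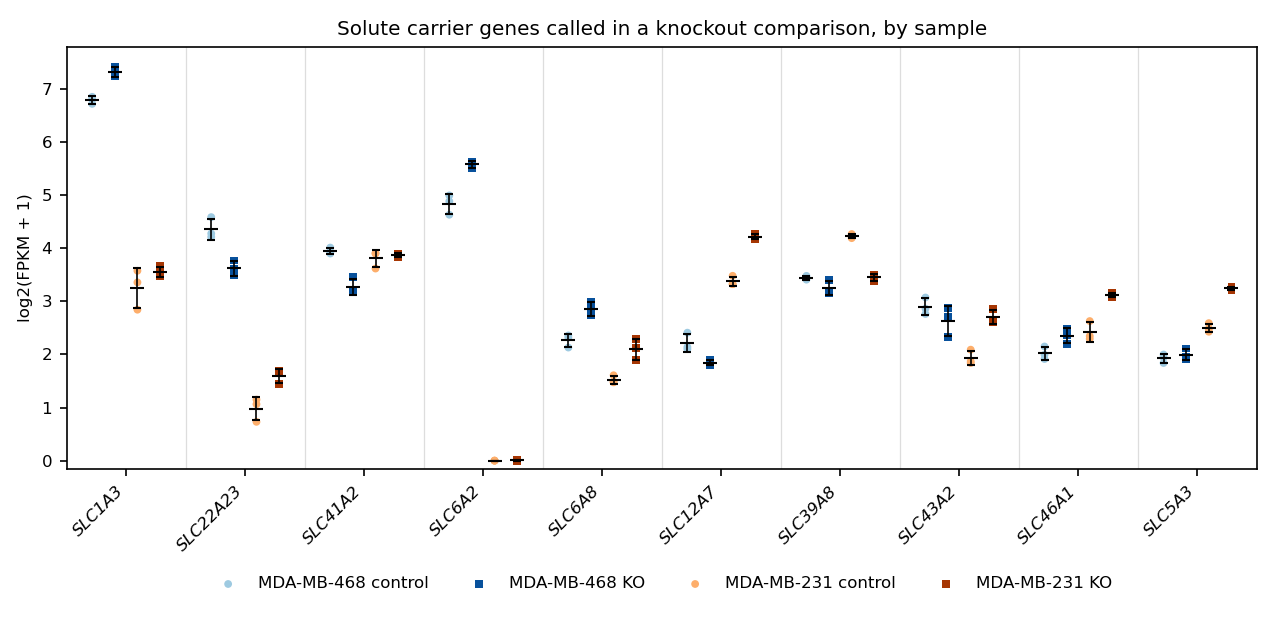
Values of the 10 solute carrier genes called in either KO comparison, as log2(FPKM + 1), with a point for each sample and a bar for the mean and SD of 3 samples in each of the 4 groups. KO samples of SLC6A8 lie above the controls in both cell lines, whereas those of SLC22A23 lie below them in MDA-MB-468 and above them in MDA-MB-231 cells.

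The change after KO was next compared between the cell lines in 1 fit of all 12 samples, with the difference given as the change in MDA-MB-468 minus that in MDA-MB-231 cells. Of the 166 genes, 33 passed (19.9%), against 14.7% of all genes, at an adjusted p under 0.05 and no limit on the size. The difference was negative for 22 genes, against 6.83% of all genes, and positive for 11, against 7.91% of all genes. In 21 the gene was lower in MDA-MB-468 KO and higher in MDA-MB-231 KO cells, in 9 the reverse, and selection by a difference favours such opposite signs. Of the 33, 3 were also called within MDA-MB-468 cells, and 5 within MDA-MB-231 cells. Leaving out 1 of the 12 samples gave 19 to 33 genes, with 19 without MDA-MB-468 KO sample 2, 20 without MDA-MB-468 control sample 1, 20 without MDA-MB-231 KO sample 2 and 21 without MDA-MB-231 KO sample 1.

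The largest difference was that of SLC2A10 (GLUT10), a glucose and dehydroascorbic acid transporter of internal membranes. It was 3.59, 3.04 and 2.94 in control and 2.52, 1.72 and 1.77 in KO samples of MDA-MB-468, without overlap, and 0.58, 0.58 and 0.87 in control against 1.30, 1.22 and 0.80 in KO samples of MDA-MB-231, which overlap. The difference was -1.61 (SE 0.32, adjusted p = 0.0087). Neither change passed within its cell line, at -1.18 (adjusted p = 0.075) and 0.43 (adjusted p = 0.13), apart from the blocked fit given above.

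SLC39A11 was 4.84, 4.53 and 4.43 in control and 4.11, 3.82 and 3.64 in KO samples of MDA-MB-468, and 2.44, 2.43 and 2.53 in control against 2.95, 2.90 and 2.45 in KO samples of MDA-MB-231. Its difference was -1.05 (SE 0.21, adjusted p = 0.010). The KO samples lay below the controls in MDA-MB-468 cells, and the groups overlapped in MDA-MB-231 cells. SLC16A5, of the monocarboxylate transporter family, had a difference of -0.87 (adjusted p = 0.038), with changes of -0.44 in the first cell line and 0.43 in the second, neither of which passed, and it did not pass in 8 of the fits that left out 1 sample. These came beside SLC22A23, SLC12A7, SLC43A2, SLC6A2 and SLC41A2, which are described above.

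**Figure D3:**
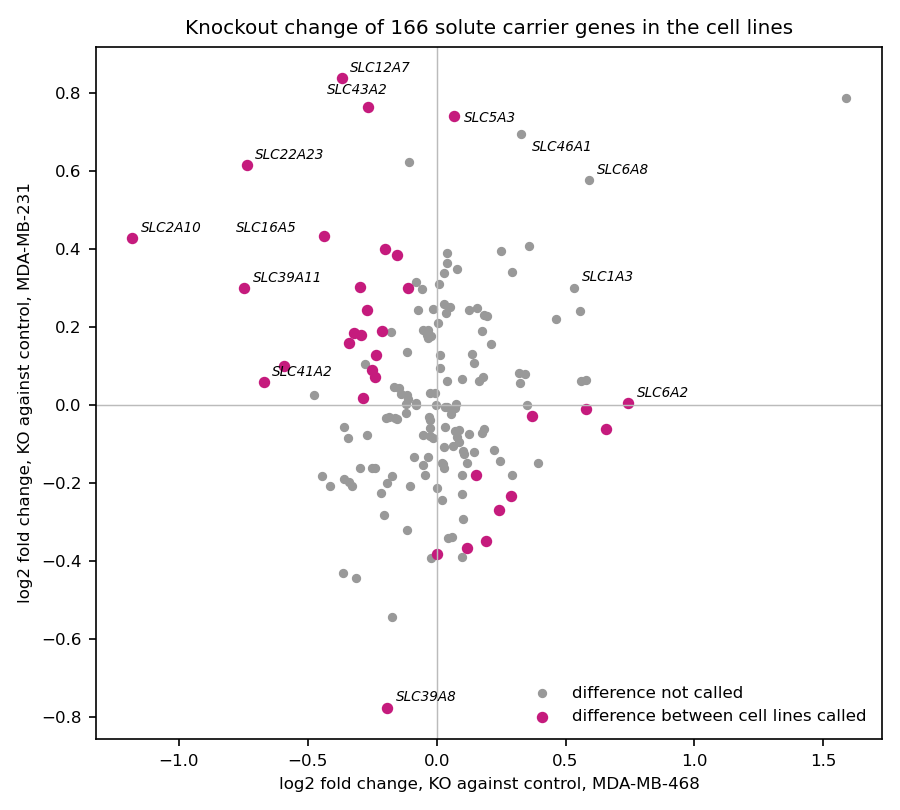
Log2 fold change after KO of the 166 genes in MDA-MB-468 (horizontal) and MDA-MB-231 cells (vertical), with a point per gene, coloured where the difference between the cell lines was called. Of the 33 coloured points 21 lie in the upper left, and the point farthest right is the pseudogene SLC2A3P1, which was not called.

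By substrate class, metal carriers stood lowest after KO in MDA-MB-468 cells among the classes with over 5 genes, while the 5 nucleotide sugar carriers stood lower still (median -0.197). Of the 23 metal carriers 1 passed (SLC41A2, lower), 18 were below 0, and the median change was -0.165, against 0.0155 over all genes. KO samples lay below all controls for 13 genes and above them for 2, against 13.5% and 17.5% of all genes, and 14 had an unadjusted p under 0.05, against 25.1% of all genes. The summed level of the class was 574 to 606 FPKM in control and 513 to 548 FPKM in KO samples, which do not overlap. The median stayed between -0.214 and -0.147 when 1 sample was left out, and at -0.175 and -0.171 with samples scaled to the same 75th percentile or quantile normalized. Below 0 were 8 of the 11 SLC39 genes, which bring metals into the cytosol, and all 5 SLC30 genes, which remove zinc from it, with medians of -0.145 and -0.174. No gene of these families passed in MDA-MB-468 cells in limma without a block (SLC39A11 did with it), 7 and 4 had an unadjusted p under 0.05, and the families were picked after their values had been seen. In MDA-MB-231 cells the median of the metal carriers was 0.0191, and only SLC39A8 passed. With the block, differences between the cell lines passed for 4 of 23, against 12.7% of all genes. Without it they passed for 8 of 23 (34.8%), against 14.7% of all genes, and 6 of these were negative. The zinc importers SLC39A6 (-0.36, adjusted p = 0.014) and SLC39A10 (-0.31, adjusted p = 0.038) were among them, and so was the copper importer SLC31A1 (-0.34), whose adjusted p rounded to 0.050. When 1 of the 12 samples was left out, SLC39A6 passed in all 12 fits, SLC31A1 in 2 and SLC39A10 in 1, and the latter pair did not pass with the block (adjusted p = 0.064 and 0.058).

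Of the 13 sugar transporters SLC5A3 alone passed in MDA-MB-231 cells, 8 had a change above 0, and the median was 0.245, or 0.162 over genes with a mean log2 value over 1, against -0.0064 over all genes. KO samples lay above all controls for 5 of the 13 and below them for 0, against 16.6% and 19.4% of all genes. The summed level of the class overlapped, with 401 to 426 FPKM in control and 420 to 431 FPKM in KO samples. In MDA-MB-468 cells 0 of 13 passed in limma without a block, with 4 at an unadjusted p under 0.05, and SLC2A10 passed with it. The difference between the cell lines passed for 5 of 13 (38.5%), against 14.7% of all genes. All 5 were negative, namely SLC2A10, SLC5A3, SLC2A11, SLC37A1 and SLC2A8, the last 3 named after their values had been seen. Among the 13 carriers of carboxylates and organic ions SLC22A23 was called in each cell line, and 4 differences (30.8%) were called, all negative, against 14.7% of all genes. The median of that class was 0.241 in MDA-MB-231 cells and 0.408 with a pseudocount of 0.1.

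None of the 36 mitochondrial carriers passed in either KO comparison in limma without a block, or with it in MDA-MB-468 cells. The block left 0 of all genes called in MDA-MB-231 cells, so it decides nothing about the class there. Without it, 6 of the 36 carriers had an unadjusted p under 0.05 in the first cell line and 19 in the second. Their medians were 0.0611 and -0.108, and the latter lay between -0.112 and -0.0733 when 1 sample was left out. In MDA-MB-231 cells KO samples lay below all controls for 12 genes and above them for 6, against 19.4% and 16.6% of all genes, and the summed level was 1608 to 1760 FPKM in control and 1446 to 1548 FPKM in KO samples, without overlap. In MDA-MB-468 cells the sum was 1644 to 1724 FPKM in control and 1736 to 1864 FPKM in KO samples, again without overlap and in the other direction. Differences between the cell lines passed for 4 of 36 (11.1%), against 14.7% of all genes, all positive and named after their values had been seen. They were the phosphate carrier SLC25A3 (0.54), the adenine nucleotide translocase SLC25A4 (0.49), the folate and FAD carrier SLC25A32 (0.38) and the ornithine carrier SLC25A15 (0.33). The last 2 did not pass with the block. The amino acid class held 3 of the 5 genes called in MDA-MB-468 and 2 of the 7 called in MDA-MB-231 cells, all higher in the fits without a block. The summed level of that class was 1093 to 1164 FPKM in control and 1248 to 1304 FPKM in KO samples of MDA-MB-468, without overlap, and SLC1A6 and SLC1A3 held the largest rises in FPKM in that sum. Without a block, limma called 0 and 1 of the 19 carriers of inorganic ions and 0 and 1 of the 17 of vitamins, lipids and others, where the zeros are for MDA-MB-468 cells, in which 8 and 7 genes had an unadjusted p under 0.05. The 5 nucleoside and 5 nucleotide sugar carriers had 0 called genes in either comparison without a block, with 2 and 1 at an unadjusted p under 0.05 in MDA-MB-468 and 2 and 3 in MDA-MB-231 cells. Of these classes SLC26A2 and SLC29A1 passed with the block in MDA-MB-468 cells. All 5 nucleoside carriers changed above 0 in MDA-MB-468 cells, with a median of 0.291, against 0.0155 over all genes. This median stayed between 0.160 and 0.297 when 1 sample was left out. The summed level was 73.3 to 88.1 FPKM in control and 94.7 to 110 FPKM in KO samples, without overlap. In MDA-MB-231 cells 1 of the 5 was above 0, and the median was -0.0605.

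For 14 widely studied carriers, 0 passed in either KO comparison in limma without a block, although 6 had an unadjusted p under 0.05 in MDA-MB-468 cells, and 5 did in MDA-MB-231 cells. SLC2A1 was 6.56, 6.47 and 6.48 in control and 6.51, 6.45 and 6.48 in KO samples of MDA-MB-468, and 7.91, 7.95 and 7.90 in control against 7.82, 7.94 and 7.89 in KO samples of MDA-MB-231. Its changes of -0.03 (95% confidence interval -0.14 to 0.09) and -0.04 (-0.16 to 0.08) came with intervals that hold no change beyond 0.16 in size. SLC7A5 changed by 0.16 (-0.24 to 0.55) and 0.25 (-0.00061 to 0.50), and its partner chain SLC3A2 by 0.03 (-0.26 to 0.33) and -0.0045 (-0.14 to 0.13). SLC7A11, the cystine-glutamate exchanger that feeds glutathione synthesis, was 2.86, 2.26 and 2.18 in control and 1.93, 1.80 and 1.93 in KO samples of MDA-MB-231, a change of -0.54 that did not pass (adjusted p = 0.11) although the groups did not overlap, and that passed in 1 fit of all 12 samples (adjusted p = 0.034). In MDA-MB-468 cells it was 1.89, 1.79 and 1.86 in control and 1.48, 1.70 and 1.85 in KO samples, which overlap. The copper importer SLC31A1, which has been studied as a route of platinum uptake, was 4.63, 4.51 and 4.43 in control and 4.27, 4.36 and 4.19 in KO samples of MDA-MB-468, all KO samples below the controls, with a change of -0.25 (-0.44 to -0.065, adjusted p = 0.12). In MDA-MB-231 cells its change was 0.09 (-0.056 to 0.24). The lactate carriers SLC16A1 and SLC16A3 were higher by 0.58 (adjusted p = 0.13) and 0.55 (adjusted p = 0.088) in MDA-MB-468 KO cells, and SLC29A1 by 0.66 (adjusted p = 0.060). All 3 passed in 1 fit of all 12 samples (adjusted p = 0.032, 0.020 and 0.0028), and SLC29A1 also passed with the block (0.047) and with low genes left out (0.029).

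The nucleoside transporter SLC29A1 and the cotransporter SLC12A2 had positive differences between the cell lines. SLC29A1 was 3.48, 3.75 and 3.63 in control and 4.01, 4.42 and 4.40 in KO samples of MDA-MB-468, without overlap, and 7.20, 7.09 and 7.13 in control against 7.06, 7.11 and 7.08 in KO samples of MDA-MB-231, a difference of 0.72 (adjusted p = 0.011). SLC12A2 was 5.32, 5.31 and 5.46 in control and 5.62, 5.66 and 5.65 in KO samples of MDA-MB-468, and 2.82, 2.87 and 2.73 in control against 2.70, 2.51 and 2.51 in KO samples of MDA-MB-231, a difference of 0.52 (adjusted p = 0.0086). KO samples of SLC12A2 lay above the controls in MDA-MB-468 and below them in MDA-MB-231 cells, and SLC12A7, which moves chloride outward, had the reverse order. The remaining 5 of the 14 (SLC2A3, SLC1A5, SLC38A2, SLC39A6 and SLC25A5) changed by -0.23 to 0.18 in either cell line.

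**Figure D4:**
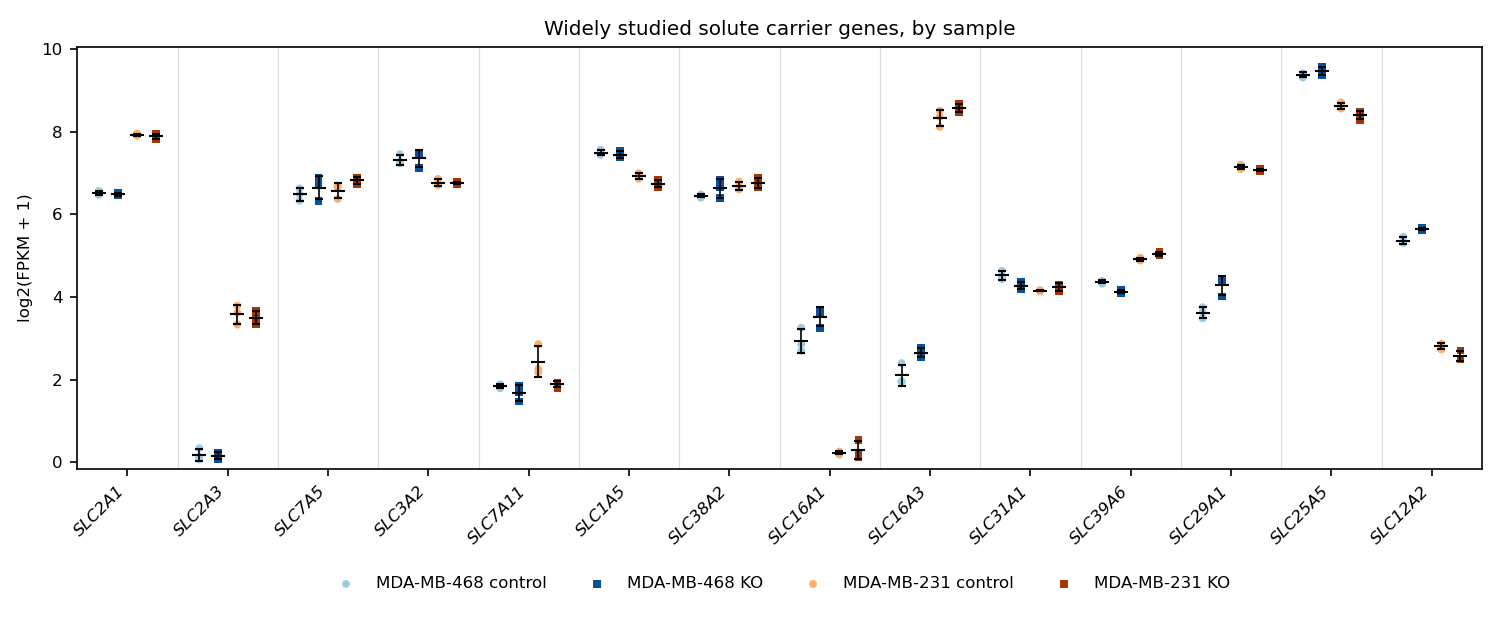
Values of 14 widely studied solute carrier genes, as log2(FPKM + 1), with a point for each sample and a bar for the mean and SD of 3 samples per group. SLC2A1 lies between 6.45 and 6.56 in all 6 MDA-MB-468 samples and between 7.82 and 7.95 in all 6 MDA-MB-231 samples.

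Likeness to SLC2A1, SLC7A5 and SLC7A11 was measured among the members as Pearson's r over 12 samples after each cell line's mean was taken off, as a description in which samples share the library and its scaling. SLC2A1 was most like SLC25A11 (0.738) and SLC27A5 (0.717), SLC7A5 most like SLC25A22 (0.863) and SLC9A7 (0.776), and SLC7A11 most like SLC25A46 (0.890) and SLC7A2 (0.865). These were the 2 highest values for each gene, so they are high by selection.

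Transporters that carry other names were counted beside them. Of 28 listed, 19 were in the table, and 0 passed in MDA-MB-468 cells in limma (5 at an unadjusted p under 0.05) and 2 in MDA-MB-231 cells, both lower. MFSD2A, which carries lysophosphatidylcholine, was 3.42, 3.30 and 3.12 in control and 2.67, 2.65 and 2.74 in KO samples (-0.59, adjusted p = 0.018). MPC1, a subunit of the mitochondrial pyruvate carrier, was 5.02, 5.0 and 5.26 in control and 4.53, 4.61 and 4.63 in KO samples (-0.51, adjusted p = 0.025). Of 15 partners, regulators and ion pumps, 13 were in the table and 1 passed in each cell line. STK39 (SPAK), the kinase that activates SLC12A2 and inhibits potassium-chloride cotransporters, was 2.87, 3.06 and 3.17 in control and 3.56, 3.80 and 3.85 in KO samples of MDA-MB-468 (0.70, adjusted p = 0.038). TXNIP, which promotes the removal of glucose transporters from the cell surface, was 6.04, 6.01 and 6.10 in control and 6.94, 6.96 and 6.70 in KO samples of MDA-MB-231 (0.82, adjusted p = 0.0095), and was listed at 0 in all 6 MDA-MB-468 samples.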

How the data were processed

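For the authors, RNA of 12 samples was sequenced by a service provider with a TruSeq Stranded mRNA kit. Per their methods and the processing notes, reads were trimmed with Trimmomatic, aligned with STAR to hg19 and quantified as FPKM with RSEM, and genes with an average FPKM or SD under 1 were removed. The deposited log2 values are log2(FPKM + 1) for 11529 genes. The smallest average and SD in the table, after conversion back, were 1.07 and 1.0 FPKM. The annotation and strand setting are not given in the sources used here. With no counts, depth is unknown and no counting interval is given, and between 11293 and 11362 genes were above 0 in each sample.

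The deposited values were fitted over all genes with limma 3.58.1 in R 4.3.3 (no trend), and p-values were adjusted by Benjamini-Hochberg. A gene was called where the adjusted p was under 0.05 and its log2 change was over 0.5 in size, or at the adjusted p alone for the difference between the cell lines. Intervals are at 95%. FPKM means and SDs are of the converted values, and fold changes on the log2(FPKM + 1) scale understate the changes of low genes. The fits were tested on simulated data. Named members were those called after KO, the 8 largest called differences between the cell lines, the 2 largest control differences and the highest level of each class, 14 widely studied members and those most like SLC2A1, SLC7A5 and SLC7A11, and others are said to be named after their values were seen. The members, classes and lists were chosen with earlier results of these data known, and SLC4A1AP and SLC7A6OS were put with the non-transporters after the table was seen. Values of 2 members that these rules would give by name are not reported here, although all counts include them apart from that of the widely studied members.

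Groups and replicate numbers were taken from the sample titles. Same-numbered control and KO samples of MDA-MB-468 deviated together weakly (correlations 0.254, 0.161 and 0.119 over all genes), so the replicate number was taken to pair them. Control 3 with KO 2 gave 0.131, and the other pairs of unlike number -0.232 to 0.029. The pairing was thus chosen from the data that were then tested, and the numbers after p in the column names pair the samples differently. Alternatives were another pseudocount, a filter on low values, an intensity trend, other scalings, a block, a fold limit of 1, 1 fit of all samples and leaving out each sample.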

Additional observations from a re-analysis of the deposited data

Results flagged for a closer look

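For 33 solute carrier genes, of which 32 are given with their values, limma found a change after KO that was not the same in the cell lines, by its interaction test over all genes (adjusted p under 0.05). The 33 were 19.9% of the 166, against 14.7% of all genes. Differences are given on the log2 scale as the change in MDA-MB-468 minus that in MDA-MB-231 cells, and all were picked out by this test.

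Among sugar transporters, SLC2A10 differed by -1.61 (adjusted p = 0.0087), the inositol transporter SLC5A3 by -0.68 (0.0021), SLC2A11 by -0.60 (0.018), the sugar phosphate carrier SLC37A1 by -0.60 (0.019) and SLC2A8 by -0.41 (0.049). SLC2A11 changed by -0.20 in the first cell line and 0.40 in the second, and SLC37A1 by -0.30 and 0.30. Among carriers of carboxylates and organic ions, SLC22A23 differed by -1.35 (0.0012), SLC16A5 by -0.87 (0.038) and the lysosomal sialic acid transporter SLC17A5 by -0.51 (0.031).

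Among carriers of amino acids and amines, SLC43A2 differed by -1.03 (adjusted p = 0.0062), SLC6A14 by -0.69 (0.027), the glycine transporter SLC6A9 by -0.47 (0.013), the neutral amino acid transporter SLC1A4 by 0.51 (0.024) and the noradrenaline transporter SLC6A2 by 0.74 (0.0028). SLC6A14 changed by -0.59 and 0.10 and SLC1A4 by 0.24 and -0.27 in the same order. Among carriers of inorganic ions, SLC12A7 differed by -1.21 (0.00025), SLC26A11 by -0.40 (0.031), SLC12A2 by 0.52 (0.0086) and the sulfate transporter SLC26A2 by 0.59 (0.031). SLC26A2 changed by 0.58 in MDA-MB-468 cells and by -0.01 in the other cell line.

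Among metal carriers, SLC39A11 differed by -1.05 (adjusted p = 0.010), the magnesium transporter SLC41A2 by -0.73 (0.0054), SLC39A6 by -0.36 (0.014), the copper importer SLC31A1 by -0.34 (0.050), SLC39A10 by -0.31 (0.038), SLC39A7 by -0.30 (0.045), SLC39A14 by 0.40 (0.050) and SLC39A8 by 0.59 (0.0044). Among vitamin and lipid carriers, the choline transporter SLC44A1 differed by -0.52 (0.0069) and the riboflavin transporter SLC52A3 by -0.50 (0.043), and among nucleoside carriers SLC29A1 by 0.72 (0.011). The mitochondrial carriers SLC25A3 (0.54, 0.0069), SLC25A4 (0.49, 0.017), SLC25A32 (0.38, 0.048) and SLC25A15 (0.33, 0.031) differed in the other direction from most sugar and metal carriers. SLC25A3 changed by 0.19 and -0.35 and SLC25A4 by 0.12 and -0.37, in the same order.

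In a fit blocked by replicate number, 29 genes passed, against 12.7% of all genes, with 25 of the 29 among the 33. Those that did not included SLC17A5 (adjusted p = 0.056), SLC25A15 (0.055), SLC25A32 (0.066), SLC31A1 (0.064), SLC39A10 (0.058), SLC39A14 (0.058) and SLC39A7 (0.058).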

How the results depend on the processing

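Depth is unknown and each group has 3 samples, so the counts after KO are sensitive to 1 library. In MDA-MB-468 cells, where 5 of 166 genes passed, 9 passed with genes of mean log2 value over 1, 8 with the replicate block, 13 in 1 fit of all 12 samples, and 0 with a fold limit of 1 (58 at an unadjusted p under 0.05) or with the number after p in the column names as a block (44). Leaving out 1 sample gave 0 to 9. In MDA-MB-231 cells, where 7 passed, 0 passed with a fold limit of 1 (69 at an unadjusted p under 0.05), and leaving out 1 sample gave 3 to 5. Same-numbered samples of MDA-MB-231 did not deviate together (correlations -0.054, 0.074 and -0.115), and the replicate block left 0 of 166 and 0 of all genes called there, with 49 of the 166 at an unadjusted p under 0.05. For the difference between the cell lines, 33 passed, and leaving out 1 sample gave 19 to 33. For control cells, 113 passed, with 111 to 113 when 1 sample was left out and 76 at a fold limit of 1. SMARCA4 changed by -1.16 in MDA-MB-468 cells also with the number after p as a block (adjusted p = 0.14) and by -1.23 to -1.10 when 1 sample was left out (0.070 without control 2, 0.057 without control 3 and 0.075 without KO 2), and with the replicate block by -1.57 in the other cell line (0.052). The causes were not tested.

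Changes of sign occurred in genes that were not called. In MDA-MB-231 cells quantile normalization gave SLC16A1 -0.0082, SLC29A1 0.0044 and SLC3A2 0.056, and the same 75th percentile gave SLC3A2 0.032. Leaving out 1 sample gave ranges in MDA-MB-231 cells of -0.061 to 0.14 for SLC16A1, -0.20 to 0.025 for SLC2A3 and -0.035 to 0.041 for SLC3A2, and in MDA-MB-468 cells of -0.043 to 0.0030 for SLC2A1, -0.084 to 0.054 for SLC2A3 and -0.034 to 0.15 for SLC3A2. Among called genes, quantile normalization took SLC1A3 to 0.49 in MDA-MB-468 cells, under the fold limit, and ended the calls of SLC22A23 (adjusted p = 0.059) and SLC6A8 (0.075) in MDA-MB-231 cells, and a pseudocount of 0.1 ended those of SLC22A23 (0.055) and of the difference of SLC16A5 (0.053). Calls were gained by SLC16A1, SLC16A3 and SLC29A1 in MDA-MB-468 cells and by SLC7A11 in the other cell line in 1 fit of all 12 samples (4 of 40 values), and by SLC29A1 with genes of mean log2 value over 1 and with the replicate block. Leaving out 1 sample turned the sign of class medians near 0 (metals in MDA-MB-231 cells from -0.019 to 0.037, carboxylates in the other cell line from -0.062 to 0.0044). Of the values for named genes, 65 of 65 kept direction and side of the threshold with an intensity trend, 63 of 65 with a pseudocount of 0.1, 59 of 65 with quantile normalization, 37 of 48 with the replicate block and 376 of 438 when 1 sample was left out.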

Other observations

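The pseudogene SLC2A3P1, whose name fits the symbol rule and which was singled out after its values had been seen, was 0, 0.43 and 0 in control and 1.28, 1.31 and 2.62 in KO samples of MDA-MB-468. It was 0, 2.06 and 0 in control and 1.54, 1.91 and 0.98 in KO samples of MDA-MB-231. Its change of 1.59 in MDA-MB-468 cells, where the groups did not overlap, did not pass (adjusted p = 0.081), and it can share reads with SLC2A3.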
